A study of Mus musculus with 11 samples.

Results

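The genes described here are 48 mouse genes of the folding, stress and secretory machinery of the endoplasmic reticulum (ER), taken by name from a fixed list. All 48 were found among the 34866 genes of the deposited table, and all 48 passed the filter on low counts that left 14889 genes for testing. A second identifier for Ddit3 had 0 counts and was not used. By role they fall into 6 stress sensors and transcription factors, 11 chaperones and co-chaperones, 4 protein disulfide isomerases, 8 genes of ER-associated degradation, 11 of the translocon and signal peptidase, and 8 cargo carriers and retrieval receptors.

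Gene expression was measured by stranded, poly(A)-selected bulk RNA sequencing of mucosa from the gastric corpus, the acid- and enzyme-secreting region of the mouse stomach. There were 11 samples: 2 wild-type controls, 3 of the ATP4B-DTR genotype, 3 of the GIF-DTR genotype and 3 of the GIF/ATP4B-DTR genotype, which carries both. The series describes the lines as models in which chief and parietal cells are ablated. DTR is the usual abbreviation for the diphtheria toxin receptor. Atp4b encodes a subunit of the proton pump of parietal cells, and Gif encodes intrinsic factor, which chief cells make in the mouse. The labels give no promoter, toxin dose, time of collection, age or sex, do not say whether controls received toxin, and do not say that replicates are separate animals. A p-value therefore measures the spread between these samples, which may be technical.

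The ER is where secreted and membrane proteins enter the secretory pathway, fold and are inspected. When unfolded proteins build up, 3 sensors in its membrane, IRE1, PERK and ATF6, start the unfolded protein response, which raises chaperones and the degradation machinery through the transcription factors XBP1, ATF4 and ATF6 and, when prolonged, induces CHOP. Chief cells pack their base with rough ER and make pepsinogen and other enzymes for export, so these genes are of interest when that cell type is lost.

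Levels are counts per 1e+06 library counts (CPM), scaled by TMM, a trimmed-mean factor that corrects for the composition of each library. Library totals ranged from 20.7 to 27.9 M counts, and 3 counts, taken as the detection floor, corresponded to 0.107 to 0.166 CPM. Differences are log2 fold changes ± standard error from edgeR's quasi-likelihood test. A gene was called changed at a Benjamini-Hochberg adjusted p under 0.05 over all tested genes. The comparisons of the lines with control share the same 2 controls. The controls had TMM factors of 0.797 and 0.864 and the lines of 0.947 to 1.12, so that group and scaling moved together. The Y-linked gene Ddx3y was at 40.8 CPM or more in both controls, in ATP4B-DTR sample 1 and in all GIF/ATP4B-DTR samples, and at 0.0793 CPM or less in the other samples. GIF-DTR therefore differs from control in Y-linked expression as well as in line, and between those groups the 2 differences cannot be told apart. A covariate for Y-linked expression, used below, separates them only through ATP4B-DTR, which holds both levels. It assumes the same effect in every genotype.

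The summed chief cell markers spanned 66.7-fold between samples, while the summed 48 genes spanned 1.35-fold. The chief sum (8 listed genes, of which Lipf was at 0 throughout) was 108090 and 225453 CPM in the controls, 81712, 24223 and 46077 in ATP4B-DTR, 25967, 5761 and 6624 in GIF-DTR, and 3381, 14353 and 16657 in GIF/ATP4B-DTR. Every line sample lay below both controls. The sum of the 48 genes was 9128 and 8201 CPM in the controls, 7495, 8286 and 8897 in ATP4B-DTR, 8497, 7337 and 7689 in GIF-DTR, and 8346, 9897 and 9019 in GIF/ATP4B-DTR. Each line overlapped the controls on this sum. As a share of unscaled counts the 48 genes made up 0.728% and 0.708% of the controls and 0.778% to 1.03% of the line samples, so on that scale every line sample lay above both controls. The controls also differed from each other: control 2 had 2.09 times the chief sum of control 1 but 0.899 times its sum of the 48 genes, and 9 of the 48 genes (18.75%) were higher in control 2, against 34.8% of all tested genes. The controls also differed in markers of other cells, given below.

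**Figure D1:**
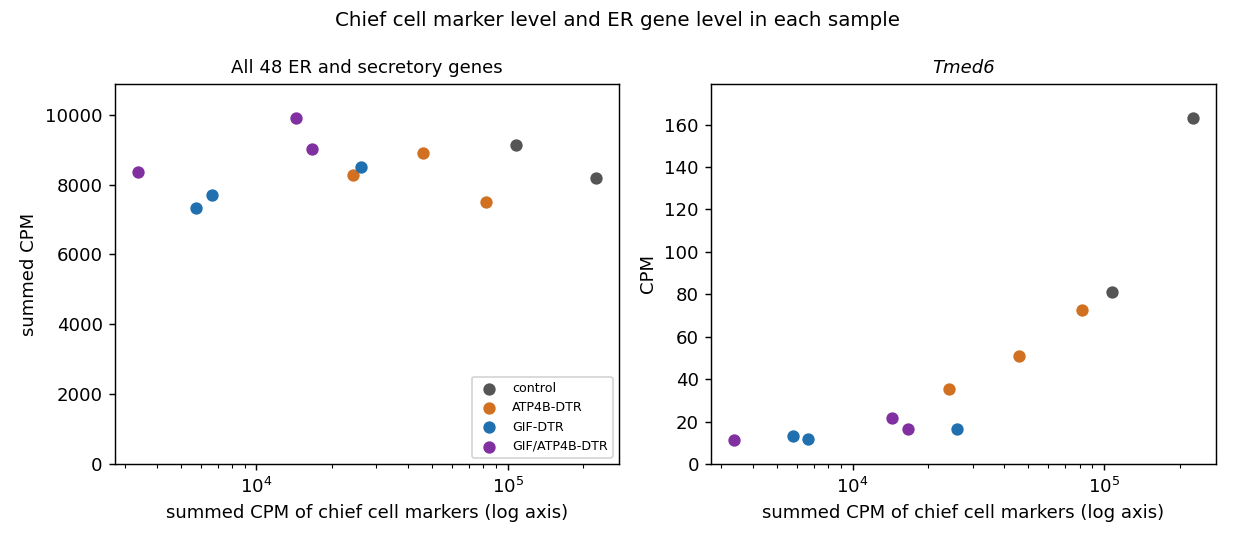
Summed chief cell markers (CPM, log axis) against the summed CPM of the 48 ER genes and against Tmed6, 1 point per sample, coloured by genotype. The summed 48 genes stayed between 7337 and 9897 CPM while the chief sum ranged from 3381 to 225453 CPM, whereas Tmed6 was at 81.0 CPM or more in the controls and at 21.7 CPM or less in every GIF-DTR and GIF/ATP4B-DTR sample.

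Against control, the members moved in both directions in each line. In ATP4B-DTR, 5 of 48 were higher (10.4%, against 12.2% of all tested genes) and 8 lower (16.7%, against 9.39%). In GIF-DTR, 3 were higher (6.25%, against 9.97% of all genes) and 10 lower (20.8%, against 6.82%). In GIF/ATP4B-DTR, 10 were higher (20.8%, against 18.2% of all genes) and 11 lower (22.9%, against 15.4%). In either direction, 21.6%, 16.8% and 33.6% of all tested genes were called in the 3 lines. The median log2 fold change of the members was 0.00, -0.04 and 0.19, against -0.01, -0.01 and -0.04 over all tested genes. The split between higher and lower depended on the scaling: with library totals alone, the median of all genes moved to 0.30, 0.35 and 0.28, and the counts became 15 higher and 4 lower in ATP4B-DTR, 15 and 4 in GIF-DTR, and 23 and 7 in GIF/ATP4B-DTR. On that scale 25.7%, 25.9% and 31.0% of all tested genes were higher and 3.96%, 2.02% and 7.68% lower. Single samples moved the counts as well. ATP4B-DTR had 6 called members without control 2 and 8 without ATP4B-DTR 2, and GIF-DTR had 7 without control 1 and 8 without control 2. With an index of Y-linked expression as a covariate, 7 members were called in ATP4B-DTR and 3 (Herpud1, Sel1l and Edem1) in GIF-DTR. The shares of all tested genes called with a sample left out or with this covariate are not given here. These counts therefore do not show how the members compare with other genes. The members lower on library totals alone were Herpud1, Sel1l and Derl3 in all 3 lines, with Edem1 in ATP4B-DTR, Tmed6 in GIF-DTR, and Atf6, Edem1, Tmed3 and Tmed6 in GIF/ATP4B-DTR.

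**Figure D2:**
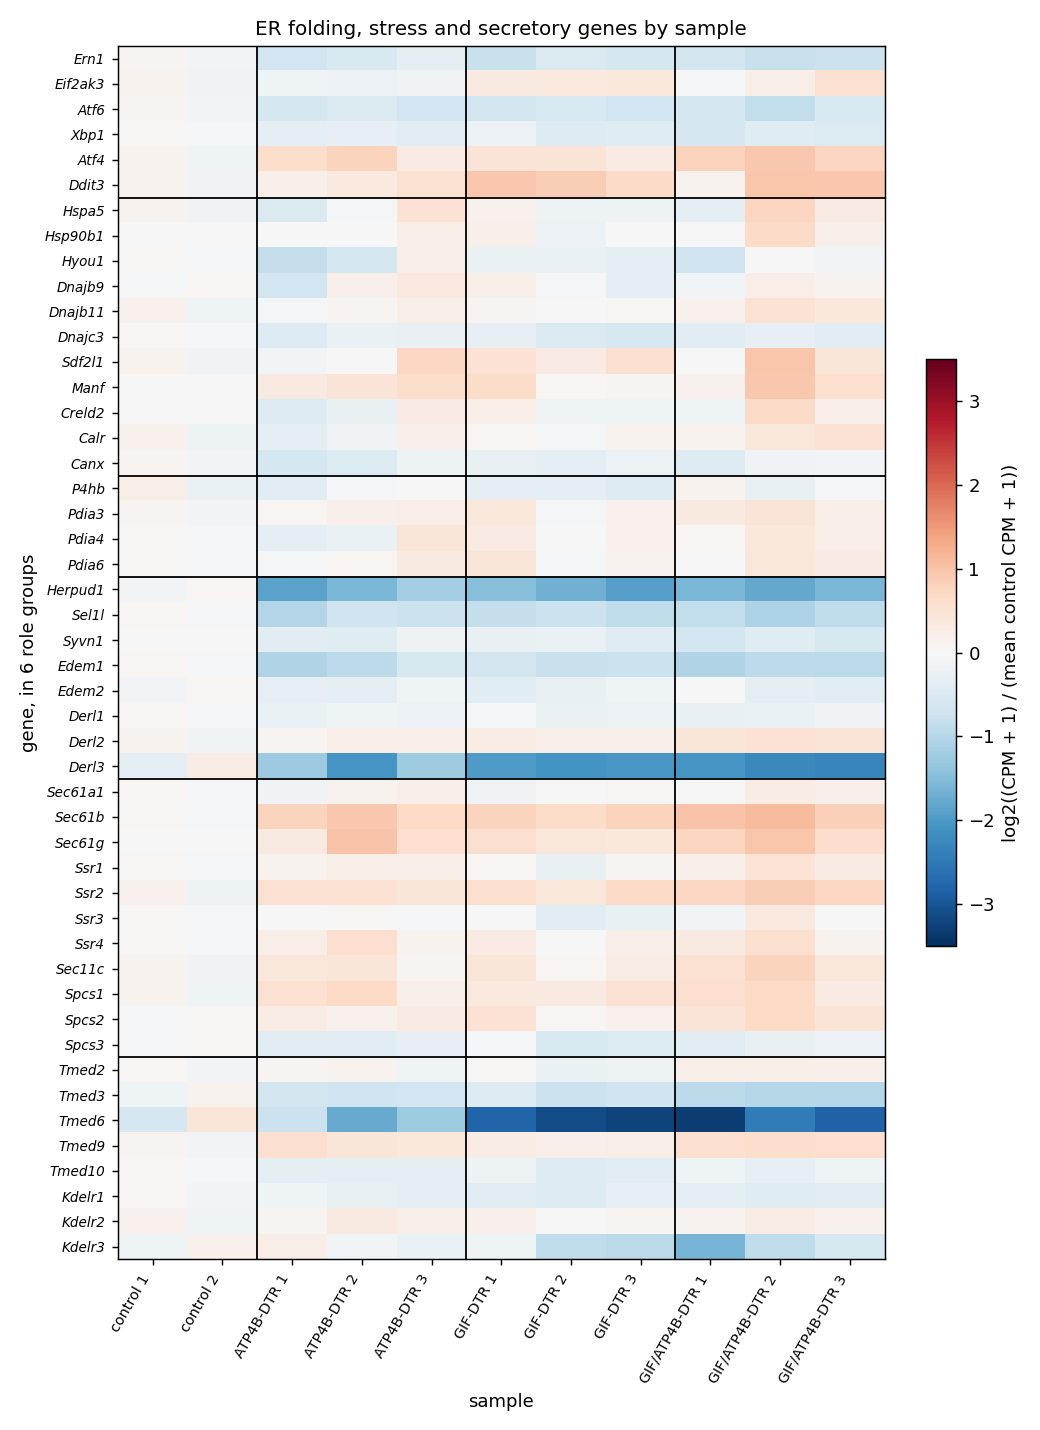
Heat map of log2((CPM + 1) / (mean control CPM + 1)) for the 48 genes (rows, by role) in the 11 samples (columns, by genotype), on a colour scale from lower to higher than control. Among the rows below both controls in all 9 line samples are Herpud1, Sel1l, Edem1, Derl3, Tmed3, Tmed6, Ern1, Atf6, Xbp1 and Dnajc3. Among those above both are Sec61b, Atf4, Ssr2, Tmed9, Sec61g and Manf. The share of all tested genes without overlap is not given here.

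Fold changes also fell with transcript length. Across 14859 genes with an annotated length, Spearman's rho between exonic length and log2 fold change was -0.23, -0.25 and -0.23 for ATP4B-DTR, GIF-DTR and both alleles together, and over the 48 members it was -0.26, -0.21 and -0.17. In GIF/ATP4B-DTR, 25.8% of the 4958 shortest genes (up to 3176 bases) were higher and 9.94% lower, against 11.1% and 22.1% of the 4952 longest (from 5760 bases). The lower members did not all have long transcripts: 4 of 8 in ATP4B-DTR, 5 of 10 in GIF-DTR and 5 of 11 with both alleles were among the shortest genes, as were 4 of 5, 3 of 3 and 6 of 10 of the higher members. Of all 48 members, 22 were among the shortest genes. Sel1l, Edem1, Atf6 and Ern1, which were lower, have 8555, 6453, 9231 and 8173 exonic bases, while Herpud1, Tmed6, Derl3, Kdelr1 and Tmed3, also lower, have 2333, 871, 1993, 1874 and 2847. Sec61b, which was higher, has 1271. With the trend on length removed in each sample, a setting chosen after seeing the data, the counts were 2 higher and 10 lower in ATP4B-DTR, 1 and 10 in GIF-DTR, and 9 and 13 in GIF/ATP4B-DTR. Under that setting 11%, 8.43% and 17.2% of all tested genes were higher and 9.37%, 6.34% and 15.0% lower.

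The promoters of 4 members are printed here because their genes carry the results that follow. Each is the 250 bases before the RefSeq transcription start (GRCm38.p6), 5′ to 3′ on the gene's strand: Hspa5 at chr2:34771840-34772089 (+), Herpud1 at chr8:94386179-94386428 (+), Derl3 at chr10:75893148-75893397 (+) and Tmed6 at chr8:107065645-107065894 (-). Capitals mark the fixed letters of matches, on either strand, to the ER stress response element (CCAAT, any 9 bases, CCACG), its second form (ATTGG, any 1 base, CCACG), the core of the unfolded protein response element (TGACGTG), the C/EBP-ATF response element core (TGATGNAA) and the E-box bound by MIST1 (CATATG).
Hspa5: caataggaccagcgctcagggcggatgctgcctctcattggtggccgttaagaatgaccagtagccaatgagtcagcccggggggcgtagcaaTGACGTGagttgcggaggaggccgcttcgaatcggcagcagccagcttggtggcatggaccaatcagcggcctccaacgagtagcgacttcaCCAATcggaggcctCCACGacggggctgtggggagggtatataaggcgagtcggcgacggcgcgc
Herpud1: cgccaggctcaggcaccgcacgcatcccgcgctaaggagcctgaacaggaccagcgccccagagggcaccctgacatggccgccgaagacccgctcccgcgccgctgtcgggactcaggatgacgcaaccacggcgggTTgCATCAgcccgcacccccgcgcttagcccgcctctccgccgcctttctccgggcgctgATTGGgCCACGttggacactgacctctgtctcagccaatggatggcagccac
Derl3: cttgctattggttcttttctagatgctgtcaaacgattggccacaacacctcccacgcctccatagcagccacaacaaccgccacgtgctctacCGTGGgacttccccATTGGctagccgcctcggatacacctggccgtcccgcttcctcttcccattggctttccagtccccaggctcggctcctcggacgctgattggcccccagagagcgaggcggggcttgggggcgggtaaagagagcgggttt
Tmed6: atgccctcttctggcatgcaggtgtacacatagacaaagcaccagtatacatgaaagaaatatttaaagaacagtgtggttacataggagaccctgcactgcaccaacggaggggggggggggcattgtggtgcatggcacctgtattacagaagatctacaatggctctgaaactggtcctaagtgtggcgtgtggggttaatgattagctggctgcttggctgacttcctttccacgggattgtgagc

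A window was at hand for 38 of the 48 members. The ER stress response element was in 9 of these (Calr, Canx, Creld2, Derl3, Dnajc3, Hsp90b1, Hspa5, Pdia6 and Syvn1) and in 37 of all 32851 windows (0.11%). Its second form was in Herpud1, among 10 windows of all (0.03%). The TGACGTG core was in Hspa5 and Kdelr3 (1.65% of all windows), TGATGNAA in Herpud1 and Kdelr1 (3.45%), and CATATG in none of the 38 (3.46%). A CCAAT box, which lies inside the ER stress response element, was in 27 of 38 and in 33.85% of all windows. Of the 9 genes with the ER stress response element, Derl3 was lower in the 3 lines, Syvn1 in GIF/ATP4B-DTR and Dnajc3 in GIF-DTR. On the TMM scale with all samples, edgeR called none of the 9 higher. Hspa5, Calr, Canx, Creld2, Hsp90b1 and Pdia6 passed its test in no line there. Over all tested genes, 12.2%, 9.97% and 18.2% were called higher and 9.39%, 6.82% and 15.4% lower in the 3 lines. With 9 genes, no higher call is near those shares and is not read as a result about them. On library totals alone, edgeR called Calr (0.68, adjusted p = 0.0171) and Hsp90b1 (0.63, adjusted p = 0.0307) higher with both alleles, and Pdia6 higher there (0.55, adjusted p = 0.0295) and in GIF-DTR (0.54, adjusted p = 0.0445). A match is a string of letters, not a measured binding site.

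Among the sensors and transcription factors, Ern1 and Atf6 were lower in all 3 lines, while Atf4 was higher in ATP4B-DTR and the line with both alleles. Ern1 (IRE1, the kinase and nuclease that splices Xbp1 mRNA) was at 51.4 and 44.9 CPM in the controls, 30.1, 33.2 and 37.7 in ATP4B-DTR, 27.5, 33.8 and 31.1 in GIF-DTR, and 30.5, 27.7 and 28.4 in GIF/ATP4B-DTR. Every line sample was below both controls, by -0.52 ± 0.14 (edgeR adjusted p = 0.0211), -0.65 ± 0.14 (adjusted p = 0.0111) and -0.74 ± 0.14 (adjusted p = 0.00200). Atf6, a membrane-held factor freed by cleavage in the Golgi, was at 78.4 and 69.1 CPM in the controls, 48.1, 52.0 and 45.7 in ATP4B-DTR, 47.3, 50.3 and 46.3 in GIF-DTR, and 47.5, 40.3 and 50.6 in GIF/ATP4B-DTR. The groups did not overlap, and its log2 fold changes were -0.60 ± 0.13 (edgeR adjusted p = 0.00686), -0.62 ± 0.13 (adjusted p = 0.00863) and -0.68 ± 0.13 (adjusted p = 0.00202). With library totals alone, Ern1 was called in no line and Atf6 only in GIF/ATP4B-DTR. Without control 1, Ern1 had adjusted p = 0.134 in ATP4B-DTR and 0.0835 in GIF-DTR, and Atf6 had 0.0570 and 0.0692. Ern1 in ATP4B-DTR was also lost without control 2 (adjusted p = 0.0530), ATP4B-DTR 1 (0.0583) or ATP4B-DTR 2 (0.0566).

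Xbp1, the factor made active by IRE1's splicing, was at 360.0 and 346.1 CPM in the controls, 281, 292 and 276 in ATP4B-DTR, 306, 260.0 and 262 in GIF-DTR, and 234, 264 and 252 in GIF/ATP4B-DTR. All line samples were below both controls. The difference passed the test in GIF/ATP4B-DTR (-0.50 ± 0.13, edgeR adjusted p = 0.0103), while in ATP4B-DTR it was -0.32 (adjusted p = 0.0934) and in GIF-DTR -0.36 (adjusted p = 0.0756). The DESeq2 Wald test called Xbp1 lower in these lines too (-0.33, adjusted p = 0.0210, and -0.37, adjusted p = 0.0111), as did edgeR with the length trend removed (-0.42, adjusted p = 0.0309, and -0.46, adjusted p = 0.0286). With library totals alone the GIF/ATP4B-DTR value was -0.18 (adjusted p = 0.250). Counts per gene do not separate spliced from unspliced Xbp1.

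Atf4, the factor translated when PERK and related kinases slow protein synthesis, ran the other way. It was at 211 and 174 CPM in the controls, 295, 332 and 235 in ATP4B-DTR, 264, 262 and 236 in GIF-DTR, and 339, 374 and 323.5 in GIF/ATP4B-DTR. All line samples were above both controls, by 0.58 ± 0.17 in ATP4B-DTR (edgeR adjusted p = 0.0291), 0.40 ± 0.17 in GIF-DTR (adjusted p = 0.122) and 0.84 ± 0.17 in GIF/ATP4B-DTR (adjusted p = 0.00291). Ddit3 (CHOP, a factor of prolonged stress) was at 11.3 and 9.36 CPM in the controls, 11.9, 13.4 and 15.5 in ATP4B-DTR, 20.7, 19.5 and 17.2 in GIF-DTR, and 11.3, 21.2 and 20.8 in GIF/ATP4B-DTR. It was higher in GIF-DTR (0.89 ± 0.25, edgeR adjusted p = 0.0359) and in GIF/ATP4B-DTR (0.78 ± 0.25, adjusted p = 0.0342), where 1 sample lay at the level of control 1. Several Atf4 and Ddit3 calls rested on single samples. Atf4 in ATP4B-DTR was lost without control 2 (0.44, adjusted p = 0.196), ATP4B-DTR 1 (adjusted p = 0.0697) or ATP4B-DTR 2 (adjusted p = 0.0900). Ddit3 in GIF-DTR was lost without any 1 of the controls or GIF-DTR samples (adjusted p from 0.0672 to 0.182). Ddit3 in GIF/ATP4B-DTR was lost without control 1 (adjusted p = 0.0651), control 2 (0.201), GIF-DTR 3 (0.0520), GIF/ATP4B-DTR 2 (0.100) or GIF/ATP4B-DTR 3 (0.102). Removing the length trend also ended the edgeR calls of Atf4 in ATP4B-DTR (0.40, adjusted p = 0.0839) and of Ddit3 in GIF-DTR (0.64, adjusted p = 0.112) and with both alleles (0.47, adjusted p = 0.177). Eif2ak3 (PERK itself) was called in no comparison on the TMM scale; on library totals alone it was higher in GIF-DTR (0.72, edgeR adjusted p = 0.0101) and with both alleles (0.57, adjusted p = 0.0215). It was at 63.2 and 52.7 CPM in the controls, 51.6, 50.1 and 53.0 in ATP4B-DTR, 72.8, 74.3 and 74.6 in GIF-DTR, and 54.9, 67.0 and 84.5 in GIF/ATP4B-DTR. All GIF-DTR samples were above all ATP4B-DTR samples, a difference of 0.52 with edgeR adjusted p = 0.194.

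Of 11 chaperones, which bind unfolded proteins, edgeR called none in ATP4B-DTR or GIF/ATP4B-DTR, where 21.6% and 33.6% of all tested genes were called. In GIF-DTR it called 1 lower, Dnajc3 (9.09%, against 6.82% of all genes). The DESeq2 Wald test called Canx lower in ATP4B-DTR (-0.43, adjusted p = 0.0424), and in GIF/ATP4B-DTR Dnajc3 lower (-0.36, adjusted p = 0.0187) and Manf higher (0.59, adjusted p = 0.0484). The median log2 fold change of the 11 was 0.02 in ATP4B-DTR, -0.01 for GIF-DTR and 0.31 with both alleles, where 8 of 11 were positive, against 48.2% of all tested genes. GIF/ATP4B-DTR against the single lines gave positive values for 10 of 11 (ATP4B-DTR, median 0.22) and 11 of 11 (GIF-DTR, median 0.28), none of which passed the edgeR test; over all tested genes 50% and 51.2% were positive. Their summed level was 2767 ± 257 CPM (SD, n = 2) in control, 2690 ± 539 (SD, n = 3) with ATP4B-DTR, 2657 ± 235 (SD, n = 3) with GIF-DTR and 3209 ± 672 (SD, n = 3) with both. Hspa5 (BiP, the main HSP70 chaperone of the ER) was at 712 and 597 CPM in the controls, 457, 626 and 934 in ATP4B-DTR, 724, 578.5 and 576 in GIF-DTR, and 528, 1094 and 806 in GIF/ATP4B-DTR. The groups overlapped and samples of 1 genotype differed more than the genotypes did. Its log2 fold change was 0.04 (95% interval -0.67 to 0.74) for ATP4B-DTR, -0.06 (-0.77 to 0.64) for GIF-DTR and 0.31 (-0.40 to 1.02) for GIF/ATP4B-DTR, so that this spread leaves room for a rise of up to 1.02 in GIF/ATP4B-DTR. Hsp90b1 (GRP94, the HSP90 of the ER) and Calr (calreticulin, a lectin chaperone) also overlapped control in each line, with log2 fold changes from 0.00 to 0.31 and from -0.07 to 0.35.

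Dnajc3 (P58IPK, a BiP co-chaperone that also restrains PERK) was at 211.5 and 194 CPM in the controls, 149, 173 and 171 in ATP4B-DTR, 167, 143 and 137 in GIF-DTR, and 154, 165 and 158 in GIF/ATP4B-DTR. All line samples were below control, and the GIF-DTR value passed the test (-0.45 ± 0.13, edgeR adjusted p = 0.0382). With both alleles the value of -0.35 lay close to the threshold (edgeR adjusted p = 0.0566), and 7 of 21 alternatives called it, among them DESeq2 size factors (-0.36, adjusted p = 0.0499) and a minimum of 10 counts in every sample (-0.37, adjusted p = 0.0347). The GIF-DTR call was lost without control 1 (adjusted p = 0.173), control 2 (0.0885), GIF-DTR 2 (0.100), GIF-DTR 3 (0.117) or GIF/ATP4B-DTR 3 (0.0574), and with library totals alone (-0.09, adjusted p = 0.644). Manf, a secreted ER stress-induced protein, was at 84.5 and 81.3 CPM in the controls, 103, 114 and 127 in ATP4B-DTR, 129, 86.8 and 88.7 in GIF-DTR, and 92.4, 159.8 and 124 in GIF/ATP4B-DTR. All line samples were above control, with log2 fold changes of 0.47, 0.29 and 0.60 that missed the threshold (edgeR adjusted p = 0.174, 0.430 and 0.0667), the last of which 4 of 21 alternatives called. Canx (calnexin, the membrane-bound lectin chaperone) was at 344 and 301 CPM in the controls, 209.6, 232 and 285 in ATP4B-DTR, 267, 259.6 and 279.1 in GIF-DTR, and 235, 297 and 304 in GIF/ATP4B-DTR, and edgeR with all samples called it in no line (in ATP4B-DTR -0.41, adjusted p = 0.0925). Without ATP4B-DTR 3, Canx was lower in ATP4B-DTR (-0.55, edgeR adjusted p = 0.0403). Hyou1, a further chaperone, was called lower in ATP4B-DTR under 1 of 21 alternatives. With library totals alone 1 chaperone, Manf, was higher in ATP4B-DTR, none was called in GIF-DTR, and 4 (Hsp90b1, Dnajb11, Manf and Calr) were higher in GIF/ATP4B-DTR. Larger shares of all tested genes were also higher on that scale, as given above.

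The 4 protein disulfide isomerases, which form and shuffle disulfide bonds, included none that edgeR called with all samples and TMM scaling. Over all tested genes 21.6%, 16.8% and 33.6% were called in the 3 lines. With 4 genes, none called is near those shares and is not read as a result about them. P4hb, which per exonic length had the highest level of the 48 genes in every genotype, was at 1177 and 884 CPM in the controls, 789.7, 991 and 1013 in ATP4B-DTR, 822, 826 and 752 in GIF-DTR, and 1127, 856 and 994 in GIF/ATP4B-DTR. Pdia3, the isomerase that works with calnexin and calreticulin, was at 567 and 497 CPM in the controls, 559.6, 598 and 629 in ATP4B-DTR, 692.5, 504 and 591 in GIF-DTR, and 662, 730.02 and 619 in GIF/ATP4B-DTR. Pdia6, a further isomerase, was at 197 and 184 CPM in the controls, 186, 199.6 and 235 in ATP4B-DTR, 256, 185 and 208 in GIF-DTR, and 188, 252 and 232 in GIF/ATP4B-DTR. Their log2 fold changes against control ran from -0.37 to 0.33. On library totals alone Pdia3 was higher in all 3 lines and Pdia6 in GIF-DTR and GIF/ATP4B-DTR. Larger shares of all tested genes were also higher on that scale, as given above.

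ER-associated degradation, which extracts misfolded proteins and hands them to the proteasome, was the role group with the most lower genes. Of its 8 genes, ATP4B-DTR and GIF-DTR each had 4 lower (50%, against 9.39% and 6.82% of all tested genes) and GIF/ATP4B-DTR had 5 (62.5%, against 15.4%), with 1 other, Derl2, higher there. With library totals alone, for which the shares of all tested genes are given above, 4, 3 and 4 of the 8 were lower. Derl2 was higher in each line on that scale. Its summed level was 958 and 960.1 CPM in the controls against 541 ± 61.3 with ATP4B-DTR, 536 ± 25.5 with GIF-DTR and 519 ± 14.1 with both (SD, n = 3 each). As these are bulk samples, fewer cells of a type and less RNA per cell cannot be told apart.

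Herpud1, a membrane protein that scaffolds the HRD1 ubiquitin ligase complex, had the smallest unadjusted p of the group. It lies on chromosome 8 from 94386438 to 94395377 (GRCm38, plus strand). Herpud1 was at 344 and 385.5 CPM in the controls, 99.5, 119 and 159.5 in ATP4B-DTR, 128, 113 and 94.3 in GIF-DTR, and 119, 105.5 and 120.4 in GIF/ATP4B-DTR. The highest line sample was below the lower control by more than the spread within any group. It was 2.90-fold lower in ATP4B-DTR (-1.53 ± 0.19, edgeR adjusted p = 0.000581), 3.26-fold lower in GIF-DTR (-1.71 ± 0.19, adjusted p = 0.00106) and 3.18-fold lower in GIF/ATP4B-DTR (-1.67 ± 0.19, adjusted p = 0.000149). The call held in each line under all 21 alternatives, with values from -1.87 to -1.21, from -2.19 to -1.36 and from -1.89 to -1.35. Per exonic length it ranked 4 of 48 in control and 17, 17 and 18 in the 3 lines.

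Sel1l, the adaptor that carries substrates to HRD1, was at 211 and 192 CPM in the controls, 99.2, 123 and 118 in ATP4B-DTR, 113, 120.0 and 108 in GIF-DTR, and 110.2, 95.03 and 108.5 in GIF/ATP4B-DTR. All line samples were below control, by -0.83 ± 0.13 (edgeR adjusted p = 0.00181), -0.83 ± 0.13 (adjusted p = 0.00306) and -0.95 ± 0.13 (adjusted p = 0.000389), and the call held in each line under all 21 alternatives. Edem1, a mannosidase-like protein that marks glycoproteins for disposal, was at 142 and 129.9 CPM in the controls, 65.5, 71.2 and 92.2 in ATP4B-DTR, 87.1, 78.6 and 80.3 in GIF-DTR, and 64.7, 71.8 and 70.6 in GIF/ATP4B-DTR. Edem1 changed by -0.83 ± 0.15 (edgeR adjusted p = 0.00285), -0.73 ± 0.15 (adjusted p = 0.00787) and -0.98 ± 0.15 (adjusted p = 0.000566) with no overlap. In GIF-DTR its call was lost without control 1 (adjusted p = 0.0539) and with library totals alone (-0.37, adjusted p = 0.121). Syvn1, HRD1 itself, passed the test only in GIF/ATP4B-DTR (-0.55 ± 0.13, edgeR adjusted p = 0.00632), going from 55.4 ± 1.01 CPM (SD, n = 2) to 37.8 ± 3.09 (SD, n = 3). On library totals alone the Syvn1 change was -0.23 (adjusted p = 0.250).

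The 3 derlins, membrane proteins of the export channel, differed in direction. Derl3 was at 4.04 and 6.43 CPM in the controls, 1.58, 0.483 and 1.66 in ATP4B-DTR, 0.567, 0.472 and 0.516 in GIF-DTR, and 0.484, 0.299 and 0.249 in GIF/ATP4B-DTR. These levels rest on few reads: 90 and 116 counts in the controls, 11 to 40 in ATP4B-DTR, 12 to 13 in GIF-DTR and 7 to 12 in GIF/ATP4B-DTR. Derl3 was lower by -2.07 ± 0.52 in ATP4B-DTR (edgeR adjusted p = 0.0157), -3.32 ± 0.54 in GIF-DTR (adjusted p = 0.00332) and -3.91 ± 0.56 in GIF/ATP4B-DTR (adjusted p = 0.000451), and had the lowest level per length of the 48 genes in every genotype. Without control 2 the ATP4B-DTR value was -1.70 (adjusted p = 0.115). Within a line, the order of samples for Derl3 was that of the chief marker sum in GIF-DTR, differed from it in ATP4B-DTR and was its reverse in GIF/ATP4B-DTR. Derl2 was higher in GIF/ATP4B-DTR (46.1 to 63.5 CPM, 0.46 ± 0.12, edgeR adjusted p = 0.0106, or 0.32 with adjusted p = 0.130 without control 2). Derl1 and Edem2 did not pass the edgeR test in any line, except that Derl1 was lower with both alleles once the length trend was removed (-0.32, adjusted p = 0.0385).

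The translocon, signal peptidase and associated proteins, which bring new chains into the ER and cut their signal peptides, held only higher calls: 3 of 11 with ATP4B-DTR, 2 with GIF-DTR and 6 with both (27.3%, 18.2% and 54.5%, against 12.2%, 9.97% and 18.2% of all tested genes). With the length trend removed the counts were 1, 1 and 6, against 11%, 8.43% and 17.2% of all tested genes. Sec61b alone was called in the single lines under that setting. Sec61b, the beta subunit of the channel, lies on chromosome 4 from 47474658 to 47483242 (GRCm38, plus strand). Sec61b was at 51.9 and 49.5 CPM in the controls, 87.2, 98.5 and 82.9 in ATP4B-DTR, 87.3, 79.6 and 87.3 in GIF-DTR, and 102, 111 and 90.6 in GIF/ATP4B-DTR. The groups did not overlap, and it was higher by 0.82 ± 0.13 (edgeR adjusted p = 0.00181), 0.74 ± 0.13 (adjusted p = 0.00440) and 1.00 ± 0.13 (adjusted p = 0.000286). Ssr2, a subunit of the translocon-associated TRAP complex, was at 109.9 and 88.3 CPM in the controls, 144, 145 and 134 in ATP4B-DTR, 146.5, 129.8 and 157 in GIF-DTR, and 165, 179.9 and 163 in GIF/ATP4B-DTR. Its changes were 0.51 ± 0.14 (edgeR adjusted p = 0.0232), 0.54 ± 0.14 (adjusted p = 0.0221) and 0.77 ± 0.14 (adjusted p = 0.00168). Without control 2 the Ssr2 changes were 0.35 in ATP4B-DTR (adjusted p = 0.191) and 0.39 in GIF-DTR (adjusted p = 0.161). The ATP4B-DTR call of Ssr2 was also lost without ATP4B-DTR 1 (adjusted p = 0.0560) or ATP4B-DTR 2 (0.0592), and the GIF-DTR call without GIF-DTR 3 (0.0722).

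Sec61g, the gamma subunit of the channel, was at 7.68 and 7.42 CPM in the controls, 9.73, 16.1 and 11.9 in ATP4B-DTR, 11.6, 10.3 and 9.96 in GIF-DTR, and 13.4, 15.6 and 12.1 in GIF/ATP4B-DTR. Its counts were fractional in all 11 samples, as when reads are shared with another sequence, so its level is less certain. The same holds for Ssr1 (11 samples), Hyou1 (9) and Kdelr2 (8). It passed the test in ATP4B-DTR (0.73 ± 0.22, edgeR adjusted p = 0.0323) and GIF/ATP4B-DTR (0.86 ± 0.22, adjusted p = 0.0103), with 0.49 (adjusted p = 0.141) in GIF-DTR. Sec61g lost its ATP4B-DTR call without control 1 (adjusted p = 0.109), control 2 (0.152) or ATP4B-DTR 2 (0.0986), and its GIF/ATP4B-DTR call without control 2 (0.0732). In GIF/ATP4B-DTR, 3 signal peptidase subunits were also higher: the catalytic subunit Sec11c by 0.58 ± 0.17 (edgeR adjusted p = 0.0197), Spcs1 by 0.52 ± 0.18 (adjusted p = 0.0415) and Spcs2 by 0.55 ± 0.15 (adjusted p = 0.0171). Each of the 3 was lost without control 2 (adjusted p = 0.153, 0.255 and 0.0743) and without GIF/ATP4B-DTR 2 (0.0595, 0.113 and 0.0510). Spcs2 was also lost without control 1 (0.0762), and Spcs1 without any 1 of 6 further samples (0.0519 to 0.0815). The channel's pore-forming subunit Sec61a1, and Ssr1, Ssr3, Ssr4 and Spcs3, did not pass the edgeR test with all samples and TMM scaling; differences between subunits were not tested. Ssr1 was higher with both alleles once the length trend was removed (0.57, edgeR adjusted p = 0.0225). Without GIF-DTR 1, Spcs3 was lower in ATP4B-DTR (-0.36, edgeR adjusted p = 0.0443) and GIF-DTR (-0.50, adjusted p = 0.0264). In all, 10, 7 and 10 of the 11 had positive values. With library totals alone the group had 8, 7 and 10 higher genes and no lower ones. Larger shares of all tested genes were also higher on that scale, as given above.

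**Figure D3:**
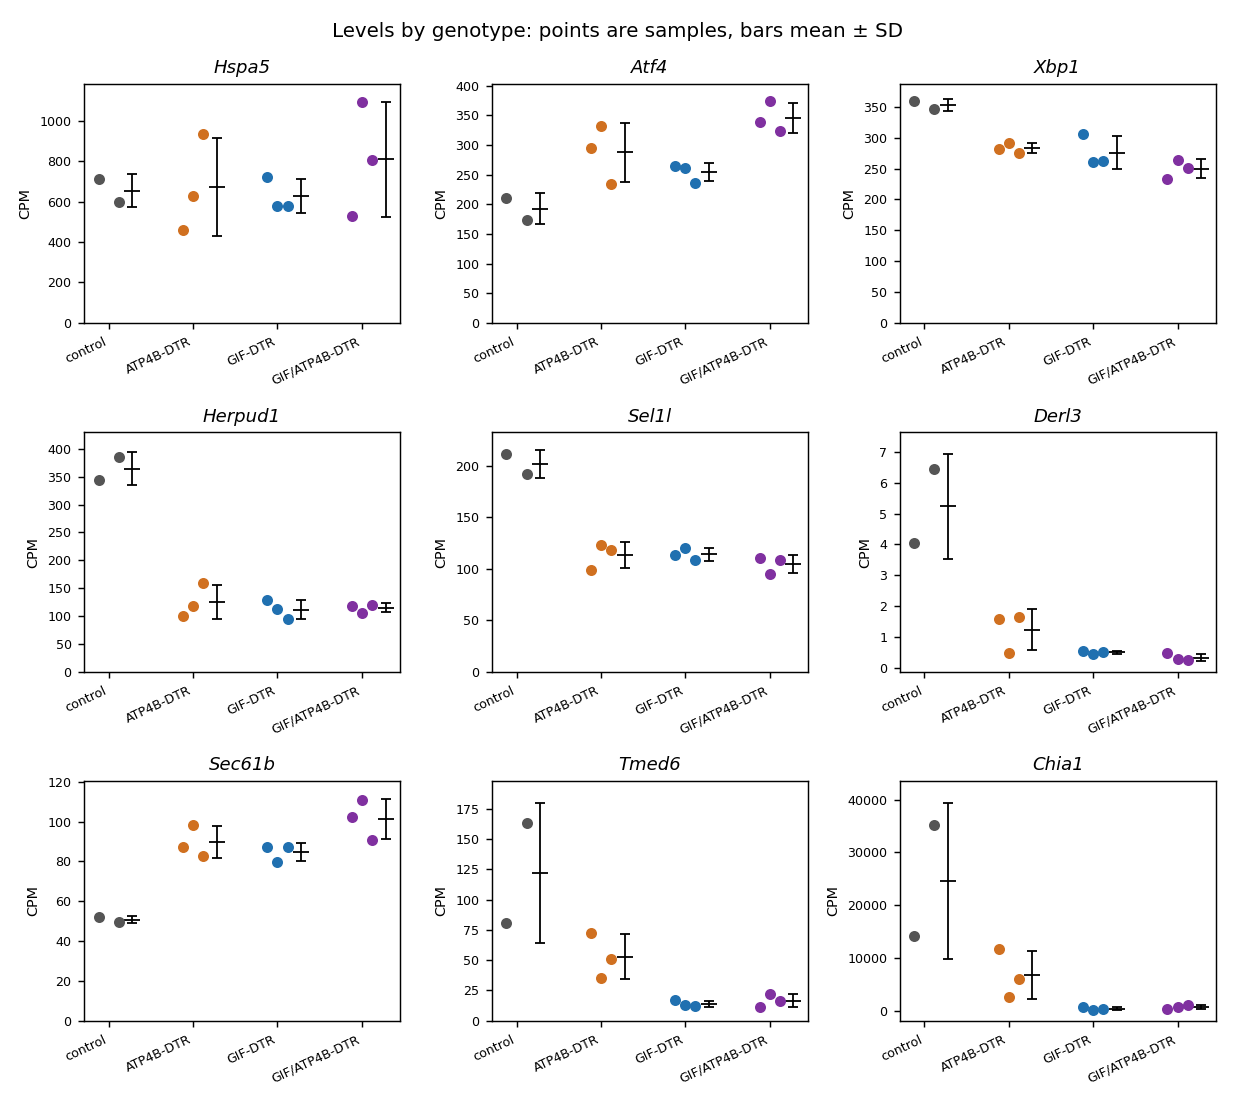
CPM of 9 genes in each sample (points) with the mean and SD of each genotype beside them (lines and error bars); each panel's linear axis includes 0 and has its own range. Herpud1, Sel1l, Derl3, Tmed6, Xbp1 and Chia1 lie below control in all lines, Sec61b and Atf4 above, and the Hspa5 samples overlap between genotypes.

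Among cargo carriers and retrieval receptors, Tmed6 differed most. The TMED (p24) proteins sort cargo into vesicles between ER and Golgi. Tmed6 lies on chromosome 8 from 107061476 to 107065644 (GRCm38, minus strand). Its level was 81.0 and 163 CPM in the controls, 72.5, 35.3 and 50.8 in ATP4B-DTR, 16.6, 13.2 and 11.98 in GIF-DTR, and 11.4, 21.7 and 16.5 in GIF/ATP4B-DTR. All line samples were below both controls, and all samples of the lines carrying GIF-DTR were below all ATP4B-DTR samples. Tmed6 was 2.31-fold lower in ATP4B-DTR (-1.21 ± 0.36, edgeR adjusted p = 0.0386), 8.76-fold lower in GIF-DTR (-3.13 ± 0.38, adjusted p = 0.00156) and 7.39-fold lower in GIF/ATP4B-DTR (-2.89 ± 0.37, adjusted p = 0.000418). The ATP4B-DTR call was lost without control 2 (-0.62, adjusted p = 0.332), ATP4B-DTR 2 (0.101), ATP4B-DTR 3 (0.0884), GIF-DTR 2 (0.0572), GIF-DTR 3 (0.0567) or GIF/ATP4B-DTR 3 (0.0565). Without control 2 the other lines gave -2.54 (edgeR adjusted p = 0.0133) and -2.30 (adjusted p = 0.00323), and with the index of Y-linked expression as a covariate GIF-DTR gave -2.38 (adjusted p = 0.0641). Per exonic length Tmed6 ranked 8 of 48 in control, then 12, 33 and 32 in the lines.

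Chief cell genes are set beside Tmed6 here sample by sample; Chia1 and Gif were chosen from the 8 chief markers. Chia1, a chitinase made by chief cells, was at 14253 and 35111 CPM in the controls, 11711, 2671 and 6011 in ATP4B-DTR, 855, 299 and 318 in GIF-DTR, and 319.9, 775 and 1167 in GIF/ATP4B-DTR. Gif was at 702 and 2302 CPM in the controls, 824, 331 and 755 in ATP4B-DTR, 65.5, 178 and 196 in GIF-DTR, and 218, 83.7 and 72.3 in GIF/ATP4B-DTR. In the controls and in ATP4B-DTR the samples fell in the same order for all 3 genes, but within the other 2 lines neither Gif nor Chia1 followed the order of Tmed6. Chief markers did not all run with Tmed6: between GIF-DTR and ATP4B-DTR, where Tmed6 was lower, Rnase1 was higher (2.96, edgeR adjusted p = 0.00310), and 5 of the 7 tested were negative in that comparison. Bhlha15 (MIST1, the transcription factor that scales up the secretory apparatus of chief cells) was at 10.7 and 31.6 CPM in the controls, 20.5, 2.63 and 10.4 in ATP4B-DTR, 0.757, 8.22 and 1.82 in GIF-DTR, and 3.79, 2.26 and 4.42 in GIF/ATP4B-DTR.

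Tmed3, another p24 protein, was at 62.7 and 76.4 CPM in the controls, 44.0, 42.1 and 43.6 in ATP4B-DTR, 50.2, 40.9 and 42.8 in GIF-DTR, and 36.5, 34.6 and 34.1 in GIF/ATP4B-DTR. It was lower without overlap in each line, by -0.69 ± 0.13 (edgeR adjusted p = 0.00378), -0.64 ± 0.13 (adjusted p = 0.00777) and -0.99 ± 0.13 (adjusted p = 0.000261). In GIF-DTR the Tmed3 call was lost without control 2 (-0.49, adjusted p = 0.0768). Tmed9 rose: it was at 114 and 99.6 CPM in the controls, 158, 144 and 137 in ATP4B-DTR, 128, 120.0 and 125 in GIF-DTR, and 158, 163 and 161 in GIF/ATP4B-DTR. The Tmed9 changes were 0.46 ± 0.12 (edgeR adjusted p = 0.0199), 0.22 (adjusted p = 0.233) and 0.59 ± 0.12 (adjusted p = 0.00332). The ATP4B-DTR call of Tmed9 was lost without control 2 (adjusted p = 0.155) or ATP4B-DTR 1 (0.0580). Kdelr1, a receptor that returns escaped ER proteins, was lower in GIF-DTR (-0.37 ± 0.11, edgeR adjusted p = 0.0468) and GIF/ATP4B-DTR (-0.37 ± 0.11, adjusted p = 0.0266). On library totals alone its values were -0.01 and -0.05. Leaving out any 1 of 9 samples ended its GIF-DTR call (adjusted p from 0.0536 to 0.245), as did leaving out control 1, GIF/ATP4B-DTR 2 or GIF/ATP4B-DTR 3 for GIF/ATP4B-DTR (adjusted p = 0.153, 0.0659 and 0.0631). In ATP4B-DTR, Kdelr1 was called lower by the DESeq2 Wald test (-0.26, adjusted p = 0.0462) and by edgeR with the length trend removed (-0.47, adjusted p = 0.0107). With all samples and TMM scaling, edgeR called none of Kdelr2, Kdelr3, Tmed2 and Tmed10. On library totals alone, Kdelr2 was higher in the 3 lines (0.52, 0.46 and 0.51) and Tmed2 in ATP4B-DTR (0.34, edgeR adjusted p = 0.0495) and with both alleles (0.52, adjusted p = 0.00443). Kdelr3 was lower with both alleles in edgeR with the length trend removed (-1.61, adjusted p = 0.0208), without GIF-DTR 1 (-1.25, adjusted p = 0.0439) or without GIF/ATP4B-DTR 3 (-1.64, adjusted p = 0.0348). The DESeq2 Wald test called Tmed10 lower in ATP4B-DTR (-0.33, adjusted p = 0.0171) and GIF-DTR (-0.34, adjusted p = 0.0164), and Kdelr3 lower with both alleles (-1.26, adjusted p = 0.0339).

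**Figure D4:**
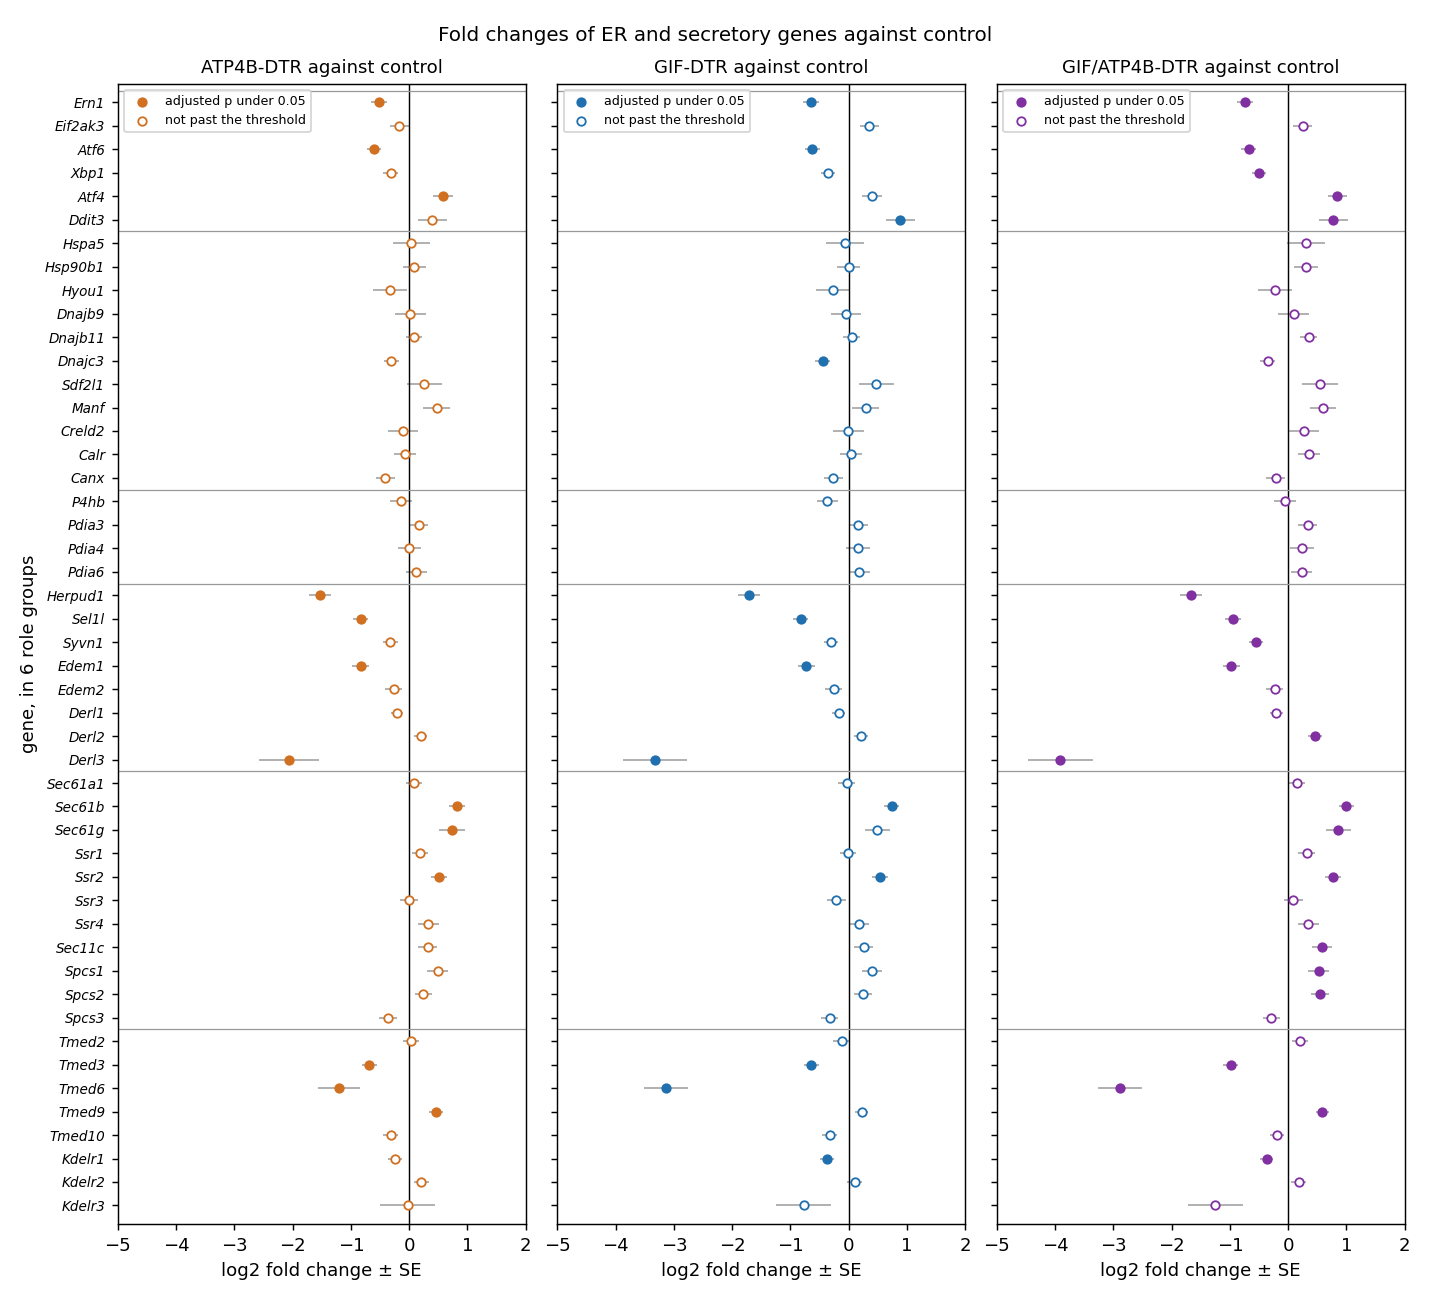
Log2 fold change against control with its standard error for each of the 48 genes, ordered by role, in 3 panels for the 3 lines; filled points are called at an adjusted p under 0.05. ER-associated degradation holds 4, 4 and 5 of the 8, 10 and 11 lower calls and the translocon group only higher ones, while chaperones lie between -0.45 and 0.60 and isomerases between -0.37 and 0.33.

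Direct comparison of the lines gave few calls among the members. Between GIF-DTR and ATP4B-DTR, 1 of 48 was called, Tmed6 (-1.92 ± 0.35, edgeR adjusted p = 0.0483), against 0.490% of all tested genes called and 0.0873% called lower. The Tmed6 value stayed between -2.15 and -1.62 over 22 alternatives, but 15 of these, including leaving out any ATP4B-DTR or GIF-DTR sample (adjusted p from 0.0625 to 0.243), GIF/ATP4B-DTR 2 (0.0592) or GIF/ATP4B-DTR 3 (0.0878), ended the call. Among samples without Y-linked expression alone it was -1.65 (adjusted p = 0.0449). For Derl3 the same comparison gave -1.25 with overlapping samples (edgeR adjusted p = 0.421). Between GIF/ATP4B-DTR and ATP4B-DTR edgeR called 0 of the 48 and 0% of all genes. At an unadjusted edgeR p under 0.05, 5 of 48 members were higher, against 656 of 14889 tested genes (4.41%). In the other direction 4 of 48 were lower, against 898 of 14889 (6.03%). DESeq2 called 1 member, Tmed6. Tmed6 differed there by -1.68 ± 0.34 (edgeR adjusted p = 0.129) with no overlap. Between GIF/ATP4B-DTR and GIF-DTR edgeR again called 0 of the 48, against 2.53% of all genes. There, at an unadjusted edgeR p under 0.05, 9 of 48 members were higher, against 1214 of 14889 tested genes (8.15%). In the other direction 1 of 48 was lower, against 1473 of 14889 (9.89%). DESeq2 called 2 members, Atf4 and Tmed9, both higher.

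The interaction of the genotypes asks whether adding GIF-DTR to ATP4B-DTR had the same effect as adding it to wild type, as the difference of the 2 log2 fold changes. It was called for 1 member, Herpud1, at 1.57 ± 0.26 (edgeR adjusted p = 0.0368), against 0.651% of all tested genes. The mean level of Herpud1 in GIF/ATP4B-DTR (115 CPM) lay between those of GIF-DTR (112) and ATP4B-DTR (126), against 365 in control. The call was lost with either control left out (adjusted p = 0.0829 and 0.116), without ATP4B-DTR 1 (0.0599) or 2 (0.0592), GIF-DTR 2 (0.0767) or 3 (0.100), and GIF/ATP4B-DTR 1 (0.0681) or 3 (0.100).

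Other genes of the same pathway, from lists chosen with earlier results of these data known, are given next with edgeR calls as counts; no list was tested against other genes, and the shares of all genes called are those given above (12.2%, 9.97% and 18.2% higher, 9.39%, 6.82% and 15.4% lower). Of 12 oligosaccharyltransferase genes, 4 were higher and 1 lower in ATP4B-DTR, 2 and 1 in GIF-DTR, and 4 and 1 in GIF/ATP4B-DTR. Ostc, a subunit of the translocon-linked complex that adds sugar chains, was higher by 0.71, 0.52 and 0.84 (edgeR adjusted p = 0.0112, 0.0482 and 0.00263). Of 12 signal recognition and membrane insertion genes, 1, 1 and 3 were higher and 2, 2 and 1 lower. The signal recognition particle subunit Srp19 was higher in the 3 lines (1.00, 0.78 and 1.19), and the receptor subunit Srpr lower (-0.34, -0.61 and -0.52; edgeR adjusted p = 0.0477, 0.00489 and 0.00399). Of 20 vesicle coat genes, 0, 0 and 1 were higher and 3, 4 and 6 lower, among them Sec31a of the COPII coat (-0.46, -0.50 and -0.77) and Copa of the COPI coat (-0.51, -0.54 and -0.73). Of 13 other degradation genes, 1, 2 and 2 were higher and 1, 0 and 1 lower; their difference from the 8 members was not tested.

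Of 16 further folding enzymes, 1, 3 and 3 were higher and 2 lower in each line. Pdia2, a disulfide isomerase known from the pancreas, was at 545 and 802 CPM in the controls, 145, 89.9 and 176 in ATP4B-DTR, 172, 107 and 135 in GIF-DTR, and 13.0, 33.9 and 36.7 in GIF/ATP4B-DTR. Its log2 fold changes were -2.30 ± 0.42 (edgeR adjusted p = 0.00478), -2.29 ± 0.42 (adjusted p = 0.00733) and -4.59 ± 0.45 (adjusted p = 0.000123). Ero1lb, an oxidase that recharges the isomerases, was at 35.01 and 59.4 CPM in the controls, 20.2, 14.0 and 17.4 in ATP4B-DTR, 11.3, 12.03 and 11.7 in GIF-DTR, and 14.7, 10.3 and 10.6 in GIF/ATP4B-DTR. It was lower by -1.46, -2.01 and -1.99 (edgeR adjusted p = 0.00184, 0.00106 and 0.000164). Counts of both genes were fractional in most samples (11 and 9 of 11), so their levels are less certain.

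Of 17 genes known as targets of ATF4 or CHOP, 4, 4 and 5 were higher and 2, 4 and 5 lower, so the list had no single direction. Cebpb, a transcription factor induced by ATF4, was higher by 1.85, 1.69 and 1.71 (edgeR adjusted p = 0.000877, 0.00227 and 0.000539), and Ddit4, an inhibitor of mTORC1, was lower by -1.03, -0.65 and -0.97 (adjusted p = 0.00172, 0.0191 and 0.00101). Of 5 membrane-bound factors related to ATF6, none was higher and 1, 1 and 3 were lower. Creb3l1 was at 108 and 109 CPM in the controls, 99.8, 90.4 and 54.9 in ATP4B-DTR, 69.6, 41.0 and 48.2 in GIF-DTR, and 43.5, 44.1 and 48.1 in GIF/ATP4B-DTR. It passed the test in GIF-DTR (-1.04, edgeR adjusted p = 0.0181) and GIF/ATP4B-DTR (-1.26, adjusted p = 0.00285), with -0.41 (adjusted p = 0.267) in ATP4B-DTR. Creb3l2 was lower in ATP4B-DTR (-1.88, edgeR adjusted p = 0.00292) and GIF/ATP4B-DTR (-2.07, adjusted p = 0.000846), with -0.79 (adjusted p = 0.115) in GIF-DTR.

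Markers of other cells the mucosa could hold were measured beside these results. Chief, parietal and pit markers were abundant in the controls, as the tissue label has it, with the chief marker Lipf at 0 in every sample. Parietal markers summed to 17405 and 16281 CPM in the controls, 3320 to 4685 in ATP4B-DTR, 7560 to 9687 in GIF-DTR and 1383 to 2674 in GIF/ATP4B-DTR, with 4, 2 and 6 of 8 called lower in the 3 lines; of the 7 chief markers tested, 1, 4 and 5 were called lower. Of 8 plasma cell markers, 6 could be tested, and 4, 0 and 3 were lower in the 3 lines. Their sum was 313 and 695 CPM in the controls and 164 to 265 in the lines, with the antibody gene Igha at 16.6 and 277 CPM in the controls, and the defining markers Mzb1 and Tnfrsf17 below 1 CPM in every sample. Of 10 pancreas acinar markers, 6 could be tested, and their sum was 44.1 and 67.0 CPM in the controls and 30.0 to 101 in the lines, highest in ATP4B-DTR 2. Of these 6, edgeR called Cela1 higher in ATP4B-DTR (0.94, adjusted p = 0.0492), Cel lower with both alleles (-1.74, adjusted p = 0.0232) and none in GIF-DTR. Of 5 endocrine markers, Chgb was higher in ATP4B-DTR and with both alleles (2.94 and 2.52), and of 4 pit markers, Muc5ac was lower with both alleles (-1.79, edgeR adjusted p = 0.0142). Of the 2 mucous neck markers, Muc6 was lower in each line (-2.46, -3.64 and -5.18) and Tff2 was not called; their sum was 1521 and 1055 CPM in the controls, within the 625 to 1762 of the lines. Fibroblast markers summed to 49.3 and 499.8 CPM in the controls and 98.2 to 729 across the lines, and macrophage markers to 11.8 and 57.3 CPM in the controls and 20.2 to 86.7 across the lines, with none called. All 8 proliferation markers were higher in each line. The part of any of these cells in the results above was not tested.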

How the data were processed

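Estimated counts per gene for all 11 samples were deposited by the authors in 1 table with versioned Ensembl mouse identifiers. The aligner and quantifier are not given in the sources used here; the genome build is mm10 per the submitters' processing notes. RNA was isolated with a column kit and made into TruSeq stranded mRNA libraries, per the labels' protocols. The unit was read from the table: 29.8% of nonzero entries depart from whole numbers by more than 0.001. The planned count tests were kept and the values rounded first. The number of columns left unused was 0.

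Symbols were matched for 34582 identifiers (99.2%), and 12307 genes were at 0 in every sample. The members and all gene lists were chosen with earlier results of these data known. Genes were filtered with filterByExpr, scaled by TMM and fitted with edgeR 4.0.16 in R 4.3.3 (quasi-likelihood, robust, 1 coefficient per genotype, all 11 samples), with Benjamini-Hochberg adjustment over 14889 genes. The common biological coefficient of variation was 26.6%. A standard error is the log2 fold change divided by the square root of F. The heat map adds a pseudocount of 1 CPM. Detection floors (3 counts) cover counting error only. The script was tested on simulated data. Exonic lengths and gene positions come from GENCODE M21 (GRCm38), and promoters from RefSeq.

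Values in every sample are given for Xbp1, Atf4, Ddit3, Hspa5 and, by role group, the 3 members with the smallest unadjusted p; other named members were chosen after their values were seen. From each further pathway list at most the 2 genes with the smallest p were named. The alternatives were DESeq2 size factors, no TMM factor, the 50 most abundant genes left out of the scaling, the DESeq2 1.42.0 Wald test, no filter on low counts, a filter asking 10 counts of each sample, moderation that is not robust, an index of Y-linked expression (Ddx3y above 1 CPM) as a covariate, only the groups compared, only samples without Y-linked expression, leaving out each sample, and, added after seeing the data, removal of the length trend. With 1 control left, that control is assumed to vary like the other groups.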

Additional observations from a re-analysis of the deposited data

Results flagged for a closer look

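In the main fit, the change of Herpud1 with the GIF-DTR allele differed with the background in which it was measured. The interaction of the genotypes was 1.57 ± 0.26 on the log2 scale (edgeR adjusted p = 0.0368): Herpud1 changed by -1.71 from control to GIF-DTR and by -0.14 from ATP4B-DTR to GIF/ATP4B-DTR. The test of that difference passed in 11 of 20 alternatives, with values from 1.22 to 2.40. With an index of Y-linked expression as a covariate it was 2.40 (edgeR adjusted p = 0.213). Positive interactions were not particular to Herpud1: 35 of the 48 members, all 8 of ER-associated degradation and all 7 tested chief markers had them. The medians of these lists were 0.18, 0.44 and 1.44, against -0.04 over all tested genes. Every GIF-DTR sample differed from both controls in Y-linked expression, and ATP4B-DTR 2 and 3 differed in it from GIF/ATP4B-DTR. In the fit without that covariate, the part of Y-linked expression and the part of the lines therefore cannot be told apart.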

How the results depend on the processing

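No paired analysis was possible because the replicate numbers of the lines follow accession order only. Of 49 calls of single members over all comparisons, 0 reversed under any alternative; the DESeq2 Wald test kept 49, library totals alone 34, the Y-linked index 30, leaving out control 2 30 and removing the length trend 40. For ATP4B-DTR against control, the count of 13 called members became 7 with the Y-linked index and 8 with only the groups compared, and 6 to 15 on leaving out 1 sample. For GIF-DTR against control it became 3 with the Y-linked index and 7 to 13 on leaving out 1 sample. For GIF/ATP4B-DTR against control the count of 21 ranged from 15 to 23 on leaving out 1 sample. For GIF-DTR against ATP4B-DTR the count of 1 became 0 with DESeq2 size factors, no TMM factor, scaling without the 50 most abundant genes, no filter, at least 10 counts, the Y-linked index or the length trend removed, and was 0 to 1 on leaving out 1 sample. GIF/ATP4B-DTR against ATP4B-DTR gave 1 and against GIF-DTR 2 with DESeq2, against 0 each. The interaction gave 2 with no TMM factor, 4 with DESeq2, 0 with the Y-linked index and 0 to 1 on leaving out 1 sample, against 1; it was not run with only the groups compared. The causes of these shifts were not tested. The counts in this paragraph are not set against shares of all tested genes, so they do not show how the members compare with other genes. Depth limits Derl3 most, with 7 to 12 counts in GIF/ATP4B-DTR; at least 10 counts in every sample removes it.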
